A study of Homo sapiens with 17 samples.

Results

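A set of 7 genes of peptide hormone production was followed by RNA-seq of polyadenylated RNA in 786-O, an established line of clear cell kidney carcinoma. They are the hormone precursors PTHLH, STC1 and STC2 and the processing enzymes FURIN, CPE, CPD and PAM. They were chosen by symbol, and all 7 of 7 were found among the 27315 genes of the deposited table. The choice was made with results of these data known: CPE and PTHLH had been singled out for their fall with guides against HIF2a, and it is not recorded which values brought in the other 5. For that reason every difference between the HIF2a guides and their control is given for the 7 genes as a description, with no test. Tests are given for the USP37 experiment and between guides. Values of those comparisons may also have had a part in choosing the other 5 genes. For these 5 the tests may therefore not be independent of the choice. The comparison between the scrambled controls is also descriptive, because it shares a control with the comparison that chose the genes.

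All groups share the same line. 786-O cells have lost working VHL, which normally sends HIF alpha proteins for destruction, and HIF2a is the form that builds up in them. The cells had been infected with lentivirus made from pLenti CRISPR-V2 puro, a vector that carries Cas9 and 1 guide RNA, and were kept under antibiotic. There were 3 libraries each with HIF2a guide sg4, with HIF2a guide sg6 and with the scrambled guide run beside them, 3 each with USP37 guide sg3 and USP37 guide sg9, and 2, numbered 2 and 3, with the scrambled guide of the USP37 experiment, 17 in all. HIF2a is the protein of EPAS1, and USP37 is a deubiquitinase that the series title links to HIF2a. The labels speak of triplicates but do not tie a library to a culture of its own, nor say whether infected cells were a pool or a clone or where the guides cut. The p-values thus reflect spread among these libraries that may be technical only. The deposited values are log2 values after the authors' variance stabilisation and batch correction. They are not scaled to transcript length, so levels are compared between libraries and not between genes, and the depth per library is unknown.

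Peptide hormones are made as longer precursors that are cut on their way out of the cell. Furin, a protease of the late Golgi, cuts after paired basic residues, carboxypeptidases E and D trim the basic residues left at the new end, and PAM converts a terminal glycine into the amide that many hormones need for activity. CPE is best known from the secretory granules of endocrine and nerve cells, while CPD and furin work in the general secretory route. PTHLH encodes parathyroid hormone-related protein (PTHrP), the hormone behind the raised blood calcium of many carcinomas, kidney cancers included. Stanniocalcins are secreted glycoproteins named after a calcium-lowering hormone of fish, and in mammals they inhibit the protease PAPP-A.

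The promoters of CPE and PTHLH are printed because these genes fell furthest of the 7 with the HIF2a guides. Each window runs from 250 bases before to 50 bases after a start annotated by RefSeq, 5′ to 3′ on the gene's strand. Capitals mark ACGTG or GCGTG, the core letters that HIF dimers bind within hypoxia response elements, on either strand, so CACGC is GCGTG read on the other strand. The CPE window is chr4:165378758-165379057 on the plus strand and the PTHLH window chr12:27969927-27970226 on the minus strand, both in GRCh38.p14, the build of the sequence table and not that of the expression data.
CPE: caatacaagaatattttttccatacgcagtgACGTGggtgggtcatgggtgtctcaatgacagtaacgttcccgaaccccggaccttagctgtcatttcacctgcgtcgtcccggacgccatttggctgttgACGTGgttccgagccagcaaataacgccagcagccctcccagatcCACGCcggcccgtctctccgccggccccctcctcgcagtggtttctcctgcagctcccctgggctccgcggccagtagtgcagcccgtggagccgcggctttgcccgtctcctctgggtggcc
PTHLH: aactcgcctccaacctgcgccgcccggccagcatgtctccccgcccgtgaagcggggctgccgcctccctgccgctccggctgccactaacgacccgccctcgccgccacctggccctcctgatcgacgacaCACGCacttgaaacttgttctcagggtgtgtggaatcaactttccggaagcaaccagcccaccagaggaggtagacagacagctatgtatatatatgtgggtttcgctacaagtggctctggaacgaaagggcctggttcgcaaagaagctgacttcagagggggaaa
The CPE window held 3 matches, ACGTG at -219 and -118 and GCGTG on the other strand at -73, where positions are those of the leftmost base relative to the start. The PTHLH window held 1, GCGTG on the other strand at -118. None lay within CACGTG, the palindrome bound by many other factors. The table had windows for 6 of the 7 genes, 12 in all, since FURIN has 4, PAM 3 and CPD 2, and 9 of the 12 held at least 1 match. Of all 35116 RefSeq windows, 48.4% held at least 1 match, 21.4% held ACGTG and 36.5% held GCGTG. A match is a stretch of letters and not a measured binding site, and PTHLH has further starts outside this window.

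**Figure D1:**
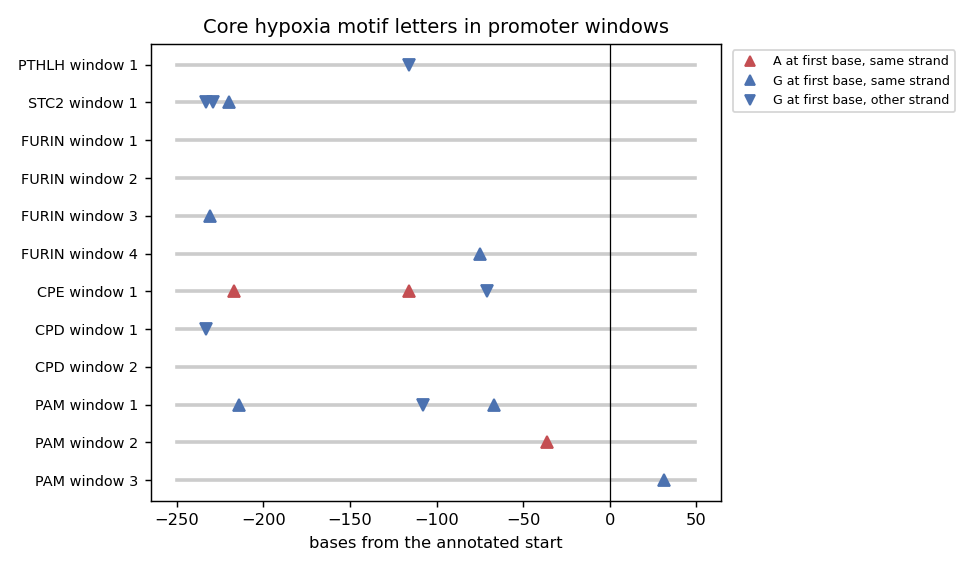
Positions of the core hypoxia motif in the 12 promoter windows of 6 genes, in bases from the annotated start (vertical line); upward triangles are matches on the gene's strand and downward ones on the other strand, red for the form beginning with A and blue for the form beginning with G. CPE has 3 matches, 2 of them of the A form, and PTHLH has 1.

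The targeted genes were lower where the labels say they were targeted. EPAS1 ran from 11.76 to 12.01 in the HIF2a control libraries, from 9.43 to 9.70 under sg4 and from 10.11 to 10.48 under sg6. USP37 mRNA ran from 9.15 to 9.33 in the control of its own experiment, from 8.23 to 8.43 under sg3 and from 8.04 to 8.30 under sg9. EPAS1 mRNA also fell there, by 0.72 (SE 0.12, limma adjusted p = 6.6e-05). USP37 mRNA in turn fell by 0.44 with the HIF2a guides (SE 0.12, limma adjusted p = 0.00903), a change not called on leaving out HIF2a control library 1 or 2 (adjusted p = 0.0625 and 0.0657) or the 3 libraries farthest from their groups (-0.26, adjusted p = 0.156). All 8 markers expected of a renal carcinoma line were above the level needed for a test, among them PAX8, a renal lineage factor. The summed value of the 8 was 97.16 to 98.21 in the HIF2a control, 95.31 to 95.65 with sg4 and 95.44 to 96.48 with sg6. It was 97.66 to 98.01 in the USP37 control, 96.59 to 97.83 with sg3 and 96.15 to 97.76 with sg9. CA12 moved most of the 8. Its mean was 12.71 in the HIF2a control, 11.07 with sg4 and 11.52 with sg6. In the USP37 experiment the CA12 mean was 13.49 in the control, 11.91 with sg3 and 11.76 with sg9. Of the 8, limma called 1 higher and 3 lower with the HIF2a guides, against 30.6% of all tested genes. With the USP37 guides 4 were higher and 3 lower, against 44.3%. By their means, none of 6 leukocyte markers was above the level needed for a test. In single libraries PTPRC reached 6.68 and CD3E 6.78, both in USP37 control library 3, CD14 reached 6.43 and LYZ 6.16. The summed value of the 6 was 30.94 to 33.38 in the HIF2a control, 31.64 to 32.60 with sg4, 31.78 to 32.30 with sg6, 31.87 to 34.23 in the USP37 control, 31.01 to 31.77 with sg3 and 31.32 to 31.70 with sg9. Without control library 3, 6 of the 7 genes were still called with the USP37 guides. Of 4 markers of 293T, the virus packaging line, 1 was above the level. That marker, the neurofilament gene NEFL, fell by 0.70 with the HIF2a guides and by 0.68 with the USP37 guides (limma adjusted p = 8.52e-07 and 9.77e-06). Its part in any result was not tested, and the other 3 were near the floor of the scale, at mean values of 5.16 for LIN28B, 5.17 for INA and 5.62 for NEFM. The summed value of the 4 was 27.30 to 27.68 in the HIF2a control, 26.68 to 27.21 with sg4, 27.13 to 27.45 with sg6, 26.95 to 27.84 in the USP37 control, 26.54 to 27.17 with sg3 and 26.45 to 26.96 with sg9. The libraries that lay farthest from the others of their group over all tested genes were sg6 libraries 2 and 3 and HIF2a control library 2.

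Across the 7 genes, PTHLH, STC1 and CPE were lower with guides against either target, and STC2 was higher on average. FURIN, CPD and PAM went in opposite directions in the 2 experiments. With the HIF2a guides, all 6 guide libraries lay below all 3 control libraries for PTHLH, STC1, FURIN and CPE, and above them for STC2, CPD and PAM. Groups that did not overlap in this way made up 25.2% of the 12484 genes tested, and 30.6% of them passed limma's threshold; nothing is read from the count of 7, since this comparison chose the genes. The median difference of the 7 was -0.39, against -0.0045 over all tested genes. With the USP37 guides, 5 of the 7 fell and 2 rose (limma, Benjamini-Hochberg adjusted over all genes tested, adjusted p under 0.05). Of all tested genes 21.9% were called lower, 22.4% higher and 44.3% in either direction. The median of the 7 was -0.78, against 0.0060 over all tested genes. The libraries of the 2 groups did not overlap for 6 of the 7, all but STC2, against 41.2% of all tested genes. These counts carry the limit that USP37 values may have had a part in choosing 5 of the 7. With sg3 alone 6 of the 7 were called, all but CPD, against 35.2% of all tested genes, and with sg9 alone 6 were called, all but STC2, against 47.8%. The adjusted p of STC2 was the highest of these 7, and without control library 2 of the USP37 experiment those for STC2 and CPD were lost, which left 5.

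The 2 scrambled controls did not stand at the same level. Between them 40.5% of all tested genes were called, and for the 7 genes the difference (USP37 control less HIF2a control) was -0.86 for PTHLH, 1.31 for STC1, 0.14 for STC2, -0.33 for FURIN, -2.10 for CPE, 0.90 for CPD and 0.64 for PAM. FURIN, CPD and PAM, whose differences had opposite signs in the 2 experiments, were among those apart between the controls. Each experiment is compared with its own control, and the part of the difference between controls in the results was not tested.

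**Figure D2:**
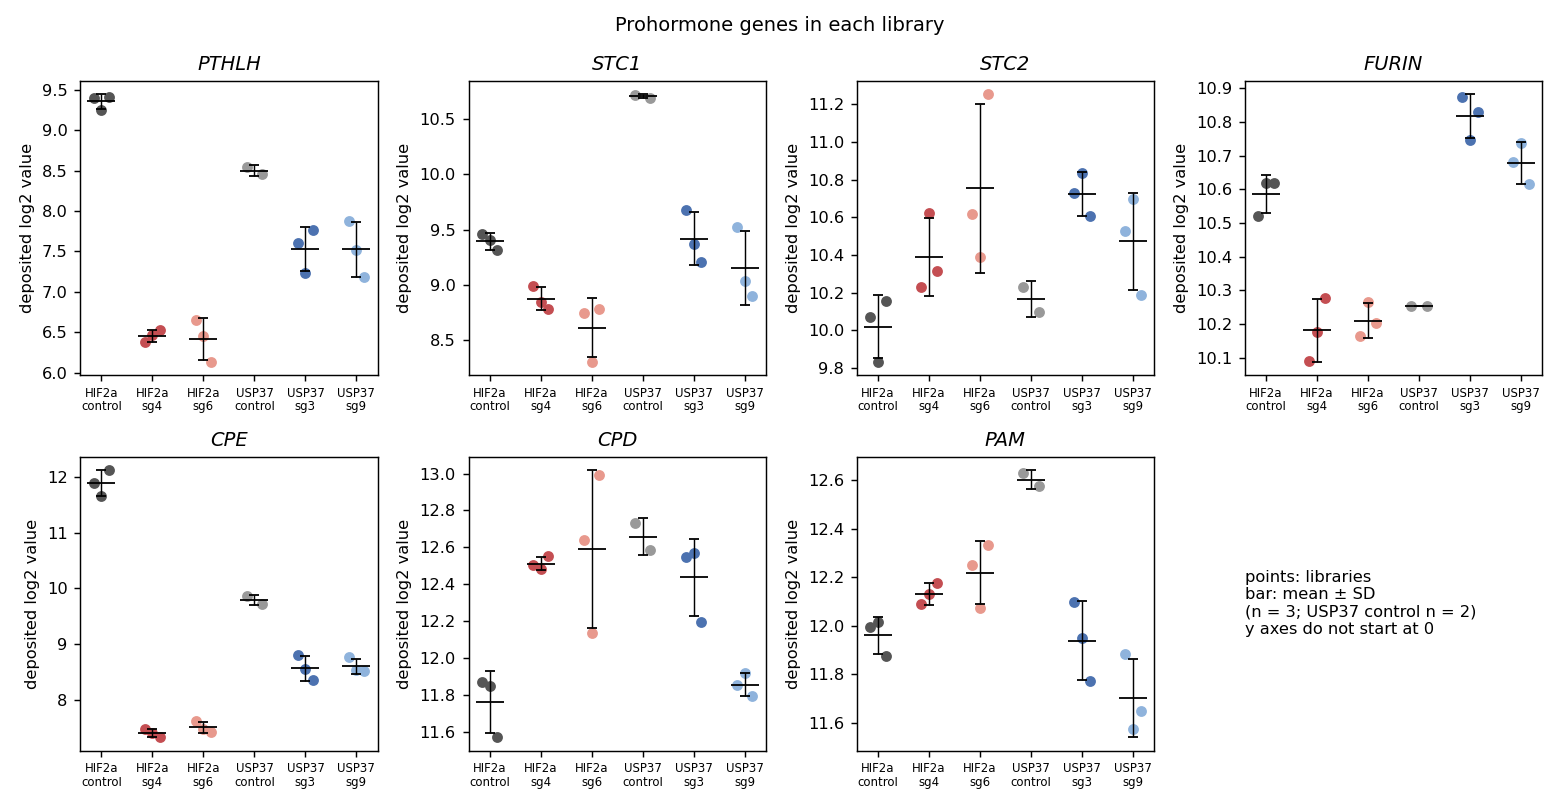
Deposited log2 value of each gene in each of the 17 libraries by group, with the mean and SD of the group as bars (n = 3, and n = 2 for the USP37 control); the y axes do not start at 0 and differ between panels. PTHLH and CPE stand highest in the HIF2a control and lowest with the HIF2a guides, while STC1 and PAM stand highest in the USP37 control.

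PTHLH, the precursor of PTHrP, was lower with all 4 guides. Its value was 9.40, 9.25 and 9.41 in the HIF2a control libraries 1, 2 and 3. It was 6.37, 6.47 and 6.52 with sg4 and 6.65, 6.45 and 6.14 with sg6. Every guide library stood well clear of every control, and the guides overlapped each other. The difference was -2.92 (SE 0.14), or 7.58-fold on this scale, which flattens towards its floor of 5.14 and so understates falls to such low values. In the USP37 experiment PTHLH was 8.55 and 8.45 in the control, 7.60, 7.23 and 7.77 with sg3 and 7.87, 7.52 and 7.19 with sg9. All 6 guide libraries lay below both controls, and PTHLH fell by 0.97 (SE 0.16, limma adjusted p = 7.29e-05), with -0.96 for sg3 and -0.97 for sg9 (limma adjusted p = 0.000334 and 0.000199).  In bulk RNA, fewer cells that express a gene and less RNA per cell cannot be told apart. In the order of its levels, the HIF2a control stood highest, then the USP37 control, then the USP37 guides and lowest the HIF2a guides, and only the guides of 1 target overlapped.

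STC1, the stanniocalcin often named as a hypoxia-responsive gene, was lower with guides against either target. It was 9.46, 9.40 and 9.32 in the HIF2a control, 8.99, 8.85 and 8.79 with sg4 and 8.75, 8.31 and 8.78 with sg6. The groups did not overlap, and the difference was -0.65 (SE 0.13). In the USP37 control it was 10.72 and 10.69, above every other library, against 9.68, 9.37 and 9.21 with sg3 and 9.53, 9.04 and 8.90 with sg9. STC1 fell by 1.42 (SE 0.15, limma adjusted p = 2.82e-07), in 6 of 6 guide libraries, by 1.29 with sg3 and by 1.55 with sg9 (limma adjusted p = 5.53e-06 and 4.44e-07). The USP37 sg3 group overlapped the HIF2a control, and the HIF2a control overlapped USP37 sg9. The fall with the USP37 guides started from a control above every HIF2a library and ended near the HIF2a control.

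STC2, the paralog of STC1 and likewise a PAPP-A inhibitor, stood higher rather than lower. It was 10.07, 9.83 and 10.15 in the HIF2a control, 10.23, 10.62 and 10.32 with sg4 and 10.62, 10.39 and 11.25 with sg6, where library 3 was the highest of all. The difference was 0.55 (SE 0.14). In the USP37 experiment it was 10.23 and 10.10 in the control, 10.73, 10.84 and 10.61 with sg3 and 10.53, 10.70 and 10.19 with sg9. Library 3 of sg9 lay between the 2 controls. STC2 rose by 0.43 (SE 0.17, limma adjusted p = 0.0386) and by 0.56 with sg3 (limma adjusted p = 0.0226), while with sg9 the difference was 0.31 (95% interval -0.08 to 0.69, limma adjusted p = 0.18). The call for the mean of the guides was lost without any 1 of 6 libraries, which were sg3 libraries 1 and 2 (adjusted p = 0.0552 and 0.0676), sg9 libraries 1 and 2 (0.06 and 0.0777) and control libraries 2 and 3 (0.0994 and 0.228). It was also lost with no filter on low values (adjusted p = 0.0706) and with no mean-variance trend (adjusted p = 0.0534). For sg3, the call was lost on leaving out its library 2 (adjusted p = 0.0725), control library 2 (adjusted p = 0.0635) or control library 3 (then 0.147). For sg9, STC2 was called when each experiment was fitted alone (limma gave 0.0323 after adjustment) or the 3 libraries farthest from their groups were left out (adjusted p = 0.0364). In the order of its 6 group means, every group overlapped the next.

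FURIN, the Golgi protease that makes the opening cut in many precursors, moved least among the 4 lower genes of the HIF2a experiment and rose in the other. It was 10.52, 10.62 and 10.62 in the HIF2a control, 10.09, 10.18 and 10.28 with sg4 and 10.16, 10.27 and 10.20 with sg6. The difference was -0.39 (SE 0.069), with no overlap. It was 10.25 in each USP37 control library, 10.88, 10.75 and 10.83 with sg3 and 10.68, 10.74 and 10.62 with sg9. FURIN rose by 0.49 (SE 0.080, limma adjusted p = 5.11e-05), in 6 of 6 guide libraries, by 0.56 with sg3 and by 0.42 with sg9 (limma adjusted p = 5.97e-05 and 0.000609). The USP37 control overlapped the libraries of sg6. The USP37 sg9 libraries overlapped the HIF2a control, and the sg3 libraries stood above both.

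CPE, the carboxypeptidase of secretory granules, had the lowest difference of all 12484 tested genes with the HIF2a guides. Its value was 11.90, 11.65 and 12.12 in the HIF2a control. With sg4 it was 7.47, 7.40 and 7.32, and with sg6 it was 7.62, 7.46 and 7.42. The 6 guide libraries lay close together and far below the lowest control. The difference was -4.44 (SE 0.11), or 21.8-fold on this scale. In the USP37 experiment CPE was 9.86 and 9.73 in the control, 8.79, 8.55 and 8.35 with sg3 and 8.76, 8.54 and 8.51 with sg9. CPE mRNA fell by 1.21 (SE 0.12, limma adjusted p = 2.4e-07), in 6 of 6 guide libraries, by 1.23 with sg3 and by 1.19 with sg9 (limma adjusted p = 1.08e-06 and 1.29e-06). The fall started from a lower control than in the HIF2a experiment. CPE followed the order seen for PTHLH, with the HIF2a control highest, the USP37 control next, the USP37 guides below it and the HIF2a guides lowest, and only guides of 1 target overlapped.

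CPD, the membrane-bound relative of CPE in the trans-Golgi network, stood the other way from CPE in the HIF2a experiment. It was 11.87, 11.85 and 11.57 in the control, 12.50, 12.48 and 12.55 with sg4 and 12.64, 12.14 and 12.99 with sg6. The sg6 libraries were the most scattered, but all lay above the controls, and the difference was 0.79 (SE 0.13). The difference for sg6 alone was 0.83, and 1.06 without its library 2. In the USP37 control CPD was 12.73 and 12.59, against 12.55, 12.57 and 12.20 with sg3 and 11.85, 11.92 and 11.79 with sg9. CPD mRNA fell by 0.51 (SE 0.15, limma adjusted p = 0.00736). The fall was 0.80 with sg9 (limma adjusted p = 0.000462), while with sg3 the difference was -0.22 (95% interval -0.56 to 0.12, limma adjusted p = 0.308). The call for the mean was lost without control library 2 (adjusted p = 0.101). The sg9 libraries overlapped the HIF2a control, and the sg3 libraries overlapped sg4.

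PAM, the only enzyme known to amidate peptides in mammals, stood slightly higher with the HIF2a guides and fell with the USP37 guides. It was 11.99, 12.02 and 11.87 in the HIF2a control, 12.09, 12.13 and 12.18 with sg4 and 12.25, 12.07 and 12.33 with sg6. The difference was 0.21 (SE 0.084), and the gap between the highest control and the lowest guide library was small. In the USP37 control it was 12.63 and 12.57, above every other library, against 12.10, 11.95 and 11.77 with sg3 and 11.88, 11.57 and 11.65 with sg9. PAM fell by 0.78 (SE 0.097, limma adjusted p = 2.69e-06), in 6 of 6 guide libraries, by 0.66 with sg3 and by 0.90 with sg9 (limma adjusted p = 8.88e-05 and 1.93e-06). The sg3 libraries overlapped the HIF2a control and those of sg9.

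**Figure D3:**
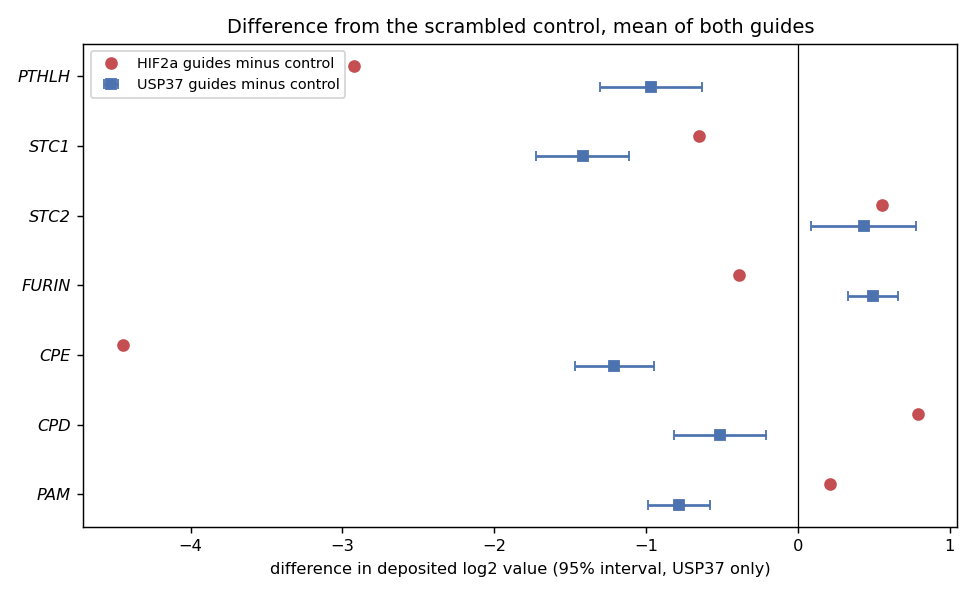
Difference in deposited log2 value between the mean of both guides and the scrambled control for each gene (x axis), red circles for HIF2a, drawn without intervals because this comparison chose the genes, and blue squares for USP37, with 95% intervals of the limma fit. CPE (-4.44) and PTHLH (-2.92) lie farthest to the left with the HIF2a guides, and FURIN, CPD and PAM lie on opposite sides of 0 in the 2 experiments.

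Guides against the same target were compared next. Between sg6 and sg4, limma called 0 of the 7, and 1 of them, STC2, had an unadjusted p under 0.05; of all tested genes 9.22% were called. EPAS1 itself was 0.81 higher with sg6 than with sg4 (SE 0.12, limma adjusted p = 0.000154). At the same time CPE differed by 0.10 (95% interval -0.16 to 0.36, limma adjusted p = 0.658) and PTHLH by -0.04 (95% interval -0.38 to 0.29, limma adjusted p = 0.908). STC2 was 0.36 higher with sg6 (95% interval 0.02 to 0.71, limma adjusted p = 0.181) and was called without sg6 library 2 (0.55, limma adjusted p = 0.0239). Between sg9 and sg3, limma called 1 of the 7, against 30.8% of all tested genes. That was CPD, which was lower with sg9 by 0.58 (the difference is -0.58, SE 0.15, limma adjusted p = 0.00543), with no overlap between the guides. PAM was at -0.24 (95% interval -0.44 to -0.03, limma adjusted p = 0.0693), and was called without sg3 library 3 (adjusted p = 0.0277), sg9 library 1 (adjusted p = 0.0217) or HIF2a sg6 library 2 (adjusted p = 0.0457). STC1 was at -0.26 (95% interval -0.57 to 0.04, limma adjusted p = 0.185) and was called without sg9 library 1 (-0.45, adjusted p = 0.0244). USP37 mRNA differed by -0.20 between these guides (limma adjusted p = 0.304).

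Over the 17 libraries Pearson's r between CPE and PTHLH was 0.97. This value largely restates the differences between groups, among them the HIF2a difference for which both genes were chosen. Within groups the genes did not always follow each other. Under sg4, library 1 was the highest of 3 for CPE (7.47) and the lowest for PTHLH (6.37), and under USP37 sg3, library 3 was the lowest for CPE (8.35) and the highest for PTHLH (7.77). A replicate term had been taken out of the deposited values, which shifts same-numbered libraries together. Its part in the order within groups was not tested. CPD and PAM came next among the pairs, at 0.73, and FURIN ran against PAM, at -0.67. Among all tested genes, those closest to PTHLH were APOL2 (0.98), CPE (0.97) and RNASET2 (0.97), and those closest to CPE were LINC01929 (0.97), PTHLH (0.97) and MYH13 (0.97). Closest to STC1 were FANCI (0.95), GAS2L3 (0.95) and KCTD3 (0.93), and closest to FURIN were DCLK2 (0.95), TUFT1 (0.94) and NCOA5 (0.94). PAM ran closest to NUCB2 (0.95), the nesfatin precursor, FKBP9 (0.95) and SLC4A4 (0.94). CPD ran closest to SPAG9 (0.93), MTRR (0.92) and MPP6 (0.91), and STC2 was least well matched, by SEMA3A (0.83), C3AR1 (0.81) and PLCE1 (0.81). These coefficients describe 17 libraries that share groups and batch correction, and no p is given.

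**Figure D4:**
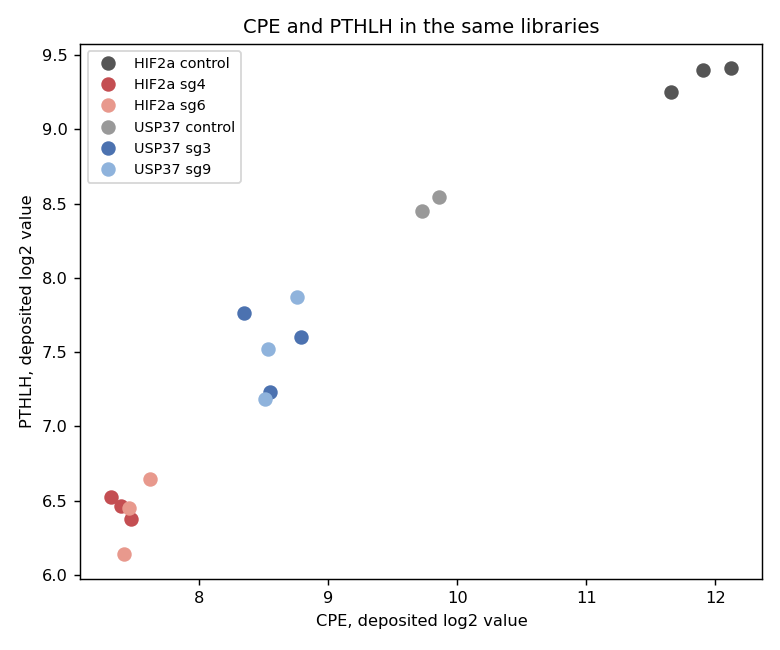
CPE (x axis) against PTHLH (y axis), deposited log2 values, 1 point for each of the 17 libraries, coloured by group. The HIF2a control libraries lie at the top right, the USP37 control below them, the USP37 guides next and the HIF2a guides at the bottom left.

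The other genes of the pathway were taken from 9 lists of 118 different genes, of which 57 were high enough to be tested. The lists were chosen with earlier results of these data known. Their tests and counts, those with the HIF2a guides included, may therefore not be independent of the choice. With the HIF2a guides 10 of these 57 were called higher and 14 lower, against 16.1% and 14.5% of all tested genes, and with the USP37 guides 12 were higher and 19 lower, against 22.4% and 21.9%. In either direction 30.6% of all tested genes were called with the HIF2a guides and 44.3% with the USP37 guides, the shares beside which the counts of each list stand. Their median difference was -0.02 with the HIF2a guides and 0.06 with the USP37 guides. The differences given for these genes are means of both guides, and the guides did not always stand at the same level. For sg6 less sg4, 2 of the 57 were called higher and 9 lower, against 9.22% of all tested genes in either direction. For sg9 less sg3, 2 were higher and 14 lower, against 30.8%. A large part of the endocrine apparatus was too low to test. None of the 6 other carboxypeptidases of the CPE family was high enough, nor were the granule proteins CHGA, CHGB, SCG2, SCG3 and PTPRN or the neuroendocrine convertases PCSK1 and PCSK2. Of 9 neuroendocrine markers 3 were tested, while INSM1 was at the floor of the scale in every library and CHGA, CHGB, SYP and NEUROD1 had mean values from 5.16 to 5.73. The summed value of the 9 was 57.98 to 58.57 in the HIF2a control, 58.60 to 58.82 with sg4 and 57.48 to 58.86 with sg6. It was 59.15 to 59.56 in the USP37 control, 56.83 to 58.06 with sg3 and 56.95 to 57.69 with sg9, and 2 of the markers, NCAM1 (-1.44) and ENO2 (-1.004), fell with the USP37 guides alongside CPE. Their part in the CPE result was not tested. With the HIF2a guides NCAM1 was 0.85 higher, opposite to CPE, and ENO2 was at -0.19 (limma adjusted p = 1.85e-06 and 0.0978). The third tested marker, SYT1, a synaptotagmin, fell by 0.63 there (limma adjusted p = 0.000526). With the USP37 guides SYT1 was not called, unlike NCAM1 and ENO2. Its mean was 7.41 in the USP37 control, 7.73 with sg3 and 7.38 with sg9.

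Some other peptide precursors also fell. Of 37 listed, 8 were tested, and with the HIF2a guides 3 were lower and 0 higher (median -0.32). They were ADM, the precursor of the amidated vasodilator adrenomedullin (-2.16, SE 0.11, limma adjusted p = 2.21e-12), EDN1, the precursor of endothelin 1, which furin-type enzymes cut (-1.48, SE 0.15, limma adjusted p = 1.35e-07), and the apelin precursor APLN (-1.17, SE 0.14, limma adjusted p = 1.34e-06). With the USP37 guides 4 were lower and 0 higher (median -0.40), led by EDN1 (-1.76, SE 0.18, limma adjusted p = 1.78e-07), ADM (-0.64, limma adjusted p = 0.000517) and the angiotensin precursor AGT (-0.59, limma adjusted p = 0.00869). AGT was not called without control library 2 (adjusted p = 0.0803). Between the controls (USP37 less HIF2a) the difference was 0.66 for EDN1, 0.37 for ADM and -0.61 for APLN. Among receptors 1 of 11 was tested. This was VDR, the vitamin D receptor, called higher with the USP37 guides (0.54, limma adjusted p = 0.049). This call was lost on leaving out any 1 of 12 libraries, with -0.03 without control library 3 (adjusted p = 0.939) and 1.11 without control library 2. PTH1R, the receptor of PTHrP, stayed below the tested level, with 5.78 in its highest library.

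Among the other convertases, 3 of 6 tested genes fell with the HIF2a guides and 0 rose. Among them were PCSK5 (-0.72, limma adjusted p = 0.000472) and the PCSK2 chaperone SCG5 (-0.72, limma adjusted p = 0.000127). The USP37 guides gave 4 lower and 1 higher. PCSK4 (-0.77, limma adjusted p = 0.00119) and PCSK5 (-0.49, limma adjusted p = 0.0196) were among those that fell, and SCG5 rose (0.86, limma adjusted p = 7.58e-05). PCSK5 was not called on leaving out control library 2 or 3 (adjusted p = 0.0856 and 0.118). The scrambled controls were not called as different at any of these 3 named genes (limma adjusted p from 0.186 to 0.582).

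Genes that supply PAM or modify peptide ends gave a mixed picture. With the HIF2a guides 2 of 7 rose and 0 fell. QPCT, a glutaminyl cyclase that caps peptides with pyroglutamate, rose by 1.04 (SE 0.13, limma adjusted p = 1.74e-06), and its Golgi relative QPCTL rose by 0.25 (limma adjusted p = 0.0223). QPCTL was not called without sg4 library 2 (adjusted p = 0.0554), without control library 1 (adjusted p = 0.128) or without the 3 libraries farthest from their groups (adjusted p = 0.0828). For QPCT the USP37 control was 1.81 above the HIF2a control. QPCT ran from 5.22 to 5.37 in the HIF2a control libraries, near the floor of 5.14. Under the USP37 guides 3 rose and 2 fell. The copper chaperone ATOX1 (0.52, limma adjusted p = 0.00609), the copper importer SLC31A1 (0.40, limma adjusted p = 0.00126) and CYB561, the cytochrome that passes ascorbate's electrons to PAM in granules (0.37, limma adjusted p = 0.00608), rose. ATP7A, the pump that loads copper into the secretory route, fell (-0.56, limma adjusted p = 0.00533), as did QPCT (-0.40, limma adjusted p = 0.0347). ATP7A (adjusted p = 0.0611) and CYB561 (adjusted p = 0.0679) were lost without control library 2, and ATOX1 without control library 3 (adjusted p = 0.0535). QPCT was lost without any 1 of 5 libraries, among them control library 3 (-0.21, adjusted p = 0.421), the others being sg3 libraries 2 and 3 and sg9 libraries 2 and 3, and with each experiment fitted alone (adjusted p = 0.0673).

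Regulated secretion genes moved in both directions. With the HIF2a guides the membrane fusion protein SNAP25 rose (0.69, limma adjusted p = 0.000221) and CADPS2, which primes dense-core granules, fell (-0.57, limma adjusted p = 0.003), 2 of the 6 tested. Under the USP37 guides VGF, a granin-like precursor (0.61, limma adjusted p = 0.00268), and the syntaxin STX1A (0.51, limma adjusted p = 0.00377) rose and RAB27A, a GTPase of granule docking, fell (-0.43, limma adjusted p = 0.00347). Leaving out 1 control ended each of these 3 calls: VGF (0.37, adjusted p = 0.139) and RAB27A (adjusted p = 0.0675) were lost without control library 2, and STX1A (adjusted p = 0.065) without control library 3.

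Of the stanniocalcin partners, 4 of 4 tested genes were called with the HIF2a guides, 2 in each direction, against 30.6% of all tested genes. Nothing is read from this count, since the list was chosen with earlier results known. PAPPA, the protease that STC1 and STC2 inhibit, rose by 0.93 (SE 0.13, limma adjusted p = 7.88e-06), and its paralog PAPPA2 fell by 0.89 (SE 0.13, limma adjusted p = 1.32e-05). IGFBP4, the binding protein that PAPP-A cleaves, rose by 0.64 (limma adjusted p = 5.93e-05), and IGFBP5 fell by 1.86 (SE 0.15, limma adjusted p = 4.34e-09). In the USP37 experiment IGFBP5 rose by 1.26 (SE 0.18, limma adjusted p = 1.28e-05) and IGFBP4 fell by 0.40 (limma adjusted p = 0.0108), while PAPPA and PAPPA2 were not called. IGFBP4 was not called without control library 3 (-0.28, adjusted p = 0.188). Between the controls (USP37 less HIF2a) the difference was -3.34 for IGFBP5 and 0.54 for PAPPA. Some of these groups had means below the tested level of 6.14. PAPPA was at 5.83 in the HIF2a control and IGFBP5 at 5.94 in the USP37 control. PAPPA2 was at 5.76 with sg4 and 5.44 with sg6.

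Peptidases that act on secreted peptides included 2 lower in both experiments. ENPEP, the aminopeptidase of angiotensin II, fell by 1.74 (SE 0.11, limma adjusted p = 3.94e-11) with the HIF2a guides and by 1.03 (SE 0.12, limma adjusted p = 1.65e-06) with the USP37 guides. Its mean was 10.51 in the HIF2a control, 8.26 with sg4 and 9.28 with sg6. MME, neprilysin, fell by 1.09 and by 0.78 (limma adjusted p = 2.17e-06 and 0.00052). DPP4 rose by 0.56 with the HIF2a guides and fell by 0.76 with the USP37 guides (limma adjusted p = 4.3e-05 and 6.89e-06), and ANPEP rose by 0.53 with the HIF2a guides (limma adjusted p = 7.23e-05). DPP4 had means of 11.42 in the HIF2a control, 12.24 with sg4 and 11.72 with sg6. The USP37 control was above the HIF2a control by 1.37 for MME, 0.94 for DPP4 and 1.55 for ANPEP. THOP1 (0.59, limma adjusted p = 0.000101) and LNPEP (0.38, limma adjusted p = 0.0243) rose with the USP37 guides, and LNPEP was not called on leaving out sg9 library 2, control library 2 or control library 3 (adjusted p = 0.0518, 0.0502 and 0.23). In all, 2 of 12 tested rose and 2 fell with the HIF2a guides, and 2 rose and 4 fell with the USP37 guides.

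Of 13 tested precursors that furin or its relatives cut, 3 rose and 3 fell with the HIF2a guides, and 2 rose and 3 fell with the USP37 guides. The growth factor PDGFB (-1.31, SE 0.11, limma adjusted p = 5.09e-09), TGFB1 (-0.75, limma adjusted p = 2.9e-06) and VEGFC (-0.33, limma adjusted p = 0.00948) fell with the HIF2a guides. The integrin ITGAV (0.60, limma adjusted p = 0.000354), IGF1R (0.59, limma adjusted p = 0.000519) and BMP4 (0.48, limma adjusted p = 0.046) rose. The BMP4 means of the HIF2a experiment were all below the tested level of 6.14. They were 5.35 in the control, 5.63 with sg4 and 6.01 with sg6, where the floor of the scale is 5.14. VEGFC was not called on leaving out control library 1 or 2 (adjusted p = 0.0575 and 0.0573), and BMP4 without any 1 of 9 libraries (adjusted p from 0.0506 to 0.184). Under the USP37 guides VEGFC (0.56, limma adjusted p = 0.000273) and BMP4 (0.52, limma adjusted p = 0.0432) rose, and PDGFB (-0.61, limma adjusted p = 0.000624), ITGAV (-0.34, limma adjusted p = 0.0432) and TGFB1 (-0.28, limma adjusted p = 0.0446) fell. BMP4 was lost without any 1 of 6 libraries, with 0.03 without control library 3 (adjusted p = 0.94) and 1.02 without control library 2, ITGAV without any 1 of 7 (adjusted p from 0.0511 to 0.274) and TGFB1 without any 1 of 10 (adjusted p from 0.0505 to 0.343). Between the controls (USP37 less HIF2a) the difference was -0.65 for TGFB1, -0.40 for PDGFB and 1.06 for BMP4.

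**Figure D5:**
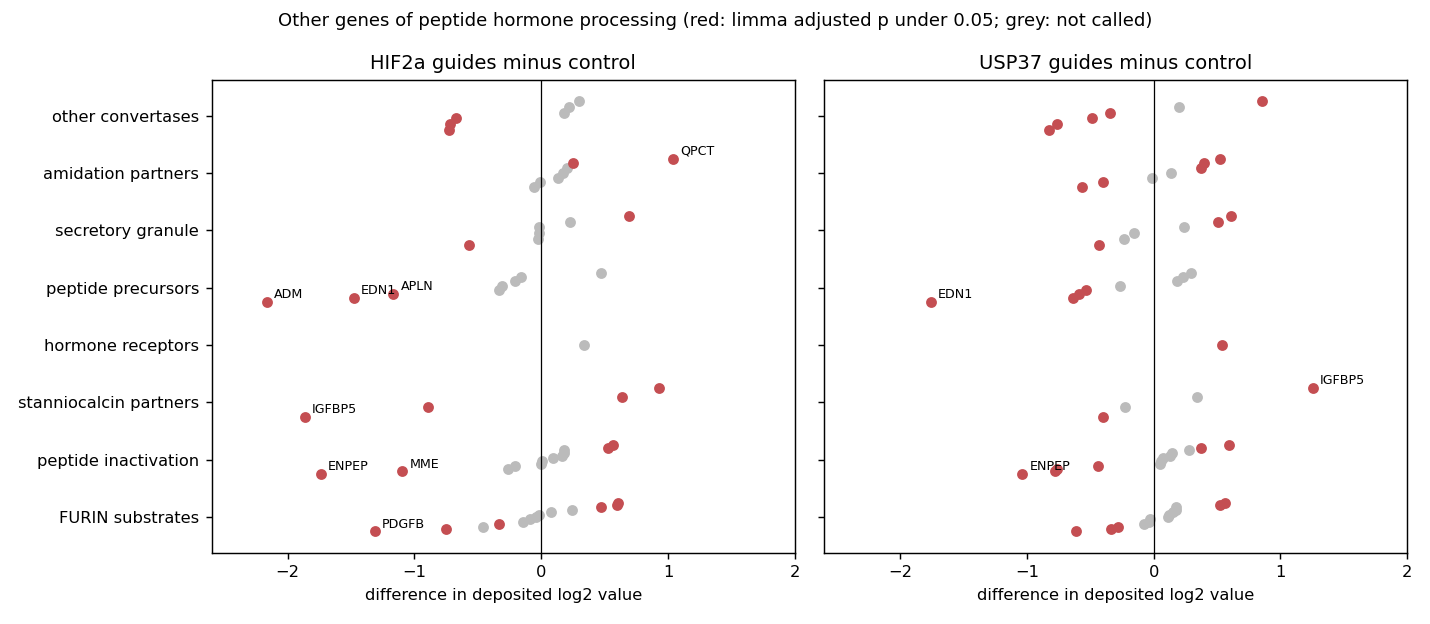
Difference in deposited log2 value between the guides and their control (x axis) for each tested gene of 8 pathway lists (y axis; the list of other carboxypeptidases had no tested gene), left for HIF2a and right for USP37, red where limma's adjusted p is under 0.05 and grey where it is not, with names for called differences of at least 1. ADM (-2.16), IGFBP5 (-1.86) and ENPEP (-1.74) lie farthest left with the HIF2a guides, and EDN1 (-1.76) with the USP37 guides.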

How the data were processed

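RNA from 17 samples of 786-O cells was sequenced by the submitters, and the authors deposited 1 table of log2 values. Per its name these are variance-stabilised and batch corrected. Tools listed in the submitters' processing notes, with no role or order, are DESeq2, Salmon, STAR 2.5.2b and cutadapt, with the build hg19. What annotation and batch variable were used, and how the correction was made, is not stated there. For every gene the means over libraries of each replicate number agreed to within 3.6e-14, so a replicate term had been taken out, unevenly, because the USP37 control has no library 1. The residual degrees of freedom do not count this. Counts and depth cannot be recovered.

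A gene was tested if its mean was 6.14 or more, which is 1 above the 1st percentile of all gene means. That left 12484. All 7 followed genes passed, as did EPAS1 and USP37. All 6 groups entered 1 linear model (R 4.3.3, limma 3.58.1; empirical Bayes with trend; 11 residual degrees of freedom), which was also tested on simulated data. Calls are at a Benjamini-Hochberg adjusted p under 0.05 over all genes. The 7 genes and the lists were chosen with earlier results of these data known. From each pathway list the 3 called genes with the largest difference per direction and experiment are named. Some genes of the lists are counted but not reported here by name. For likeness the 3 genes with the highest Pearson correlation over the 17 libraries are named. Promoters are RefSeq windows (GRCh38.p14), matched by symbol. Alternatives were a replicate block, other filters, no trend, robust fitting, array weights, centring, separate experiments and leaving out each library.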

Additional observations from a re-analysis of the deposited data

Results flagged for a closer look

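For 3 genes every guide library lay on one side of its controls in the HIF2a experiment and on the opposite side in the USP37 experiment. CPD was 0.79 higher with the HIF2a guides and at -0.51 with the USP37 guides. Its mean was 12.66 in the USP37 control, 12.44 with sg3, which was not called, and 11.86 with sg9. The highest sg3 library (12.57) lay just below the lowest control library (12.59). FURIN was at -0.39 with the HIF2a guides and 0.49 higher with the USP37 guides. PAM was 0.21 higher with the HIF2a guides and at -0.78 with the USP37 guides. The difference between the experiments was not tested, since the HIF2a comparison chose the genes. Between the controls (USP37 minus HIF2a) the values were 0.90 for CPD, -0.33 for FURIN and 0.64 for PAM. The part of the controls in this pattern was not tested.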

How the results depend on the processing

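The count of 7 genes called with the USP37 guides was 7 with the replicate block and 5 to 7 with 1 library left out. STC2 dropped out of it with no filter (limma adjusted p = 0.0706) and with no trend (limma adjusted p = 0.0534). With USP37 sg9 against sg3 the count of 1 became 2 with array weights, with centring on the library median, with each experiment alone and without the 3 libraries farthest from their groups (chosen after seeing the data), and was 1 to 3 with 1 library left out. With HIF2a sg6 against sg4 it was 0 to 1. Over all genes, the 1151 called between sg6 and sg4 became 573 with array weights, 413 without those 3 libraries and 500 to 1593 with 1 library left out, and the 5525 called with the USP37 guides were 3683 to 5854, the lowest without control library 2. The cause was not tested. Where 1 USP37 control is dropped, the other is taken to vary as the remaining groups do.

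Some differences between guides, none of them called, changed sign. With 1 library left out, PTHLH ran from -0.16 to 0.097 for sg6 minus sg4 and from -0.18 to 0.16 for sg9 minus sg3. FURIN ran from -0.016 to 0.077 for sg6 minus sg4, CPD from -0.12 to 0.30 for sg6 minus sg4 and CPE from -0.069 to 0.15 for sg9 minus sg3. Without the 3 libraries PTHLH (sg6 minus sg4) was 0.19 and FURIN -0.018, and with array weights PTHLH (sg9 minus sg3) was 0.0061. VDR with the USP37 guides ran from -0.027 without control library 3 to 1.11 without control library 2. For the 7 genes, 1596 recomputed differences kept their direction and their side of the threshold (or, where untested, stayed within 1 SD), 12 lost a call, 11 gained one, 11 changed sign and 1 moved by more than 1 SD.

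The labels do not say what a replicate number marks. Over all tested genes the correlation of deviations between same-numbered libraries exceeded 0.1 in 5 of 9 pairs of the HIF2a experiment (-0.55 to 0.22), all 3 pairs of sg4 with sg6 among them, against 4 of 18 pairs with different numbers, and in 0 of 7 pairs of the USP37 experiment (-0.19 to -0.07). The removed replicate term lowers these values, so they do not settle whether the numbers pair the samples. The block is given here as an alternative only. With the replicate block 5069 genes were called with the USP37 guides in place of 5525, and no call of the 7 genes changed. Among the pathway genes the block ended the USP37 calls of VDR (adjusted p = 0.0549), LNPEP (0.0534), ITGAV (0.0591), BMP4 (0.0784) and TGFB1 (0.0707), and the HIF2a call of BMP4 (0.0711). Depth is unknown, so its limit on weakly expressed genes cannot be stated.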
